A study of Mus musculus with 2 samples.

Results

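Cell cycle and proliferation genes were followed as a set of 37 genes chosen by name, 36 of which are among the 18193 genes with a probe set of their own on the array. They are cyclins, cyclin-dependent kinases and their inhibitors, replication factors and mitotic regulators, and every probe set whose gene symbol field holds one of them was taken. These were 89 probe sets of 36 genes. Ccnb1, the gene of cyclin B1, was not analysed here. One of these, shared by Foxm1, Pebp1 and Tex52, had intensities of 13.7 in the control RNA and 5.22 in the methionine-deficient RNA and was kept apart, which left 88 probe sets with a single symbol. The members were grouped by role into 12 genes of G1 and entry into S phase, 10 of DNA replication in S phase, and 15 of G2 and mitosis.

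The RNA came from the pancreas of male C57BL/6J offspring, an inbred laboratory mouse strain, at 10 weeks of age. Their mothers ate a control diet or a methionine-deficient diet while pregnant, and all offspring were weaned at 3 weeks and then ate control diet until collection. The maternal diet in pregnancy alone defined the groups, and what the dams ate while nursing is not stated in the labels. Within each group the RNA was combined into 1 pool and hybridised to 1 Affymetrix 3' expression array. The design thus holds no replicate mice or arrays, no p-value is given, and the comparison is between these 2 pools. How many mice a pool holds is not stated in the labels.

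A cell divides by passing through phases driven by kinases that need a cyclin partner. D-type cyclins with Cdk4 and Cdk6, then cyclin E with Cdk2, inactivate the retinoblastoma protein and release E2F factors, which switch on replication genes. Cyclin A and cyclin B with Cdk1 then drive mitosis, and the mitotic genes are silenced in resting cells. Acinar cells, the enzyme-making bulk of the adult pancreas, and beta cells divide rarely, and cyclin D2 is known for its part in the postnatal growth of beta cells.

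As a check of the tissue, the acinar marker Cpa1 read 168872 in the control RNA and 170196 in the methionine-deficient RNA, while the beta cell marker Ins2 read 93733 and 93461. Values are the deposited linear intensities, compared as the log2 difference of (intensity + 1), methionine-deficient minus control. Levels are means of the 2 log2 values, not of the intensities. Where a gene has several probe sets, the one with the highest level, called its brightest, stood for the gene, and the other probe sets are given apart. The level filter kept probe sets at or above the median of these levels, which corresponds to an intensity of 150.3, so a probe set that is bright on one array and very dim on the other can lie below it. The error beside a difference is the probe-set spread, a robust SD taken from how far probe sets that share a gene lie apart, which was 0.77, 0.60, 0.46, 0.31 and 0.18 in 5 bins of level from dimmest to brightest. It covers probe noise within these arrays only. Intensities depend on each probe set's sequence and were not compared between genes.

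Most cell cycle genes that passed the level filter had close values in the 2 pools. Of the 36 genes, 27 passed the filter, and none of them differed 2-fold, 0 higher and 0 lower. Among all 11848 genes that passed, 3.87% exceeded 2-fold on the higher side and 2.80% on the lower side, so the count of 0 among 27 is near the background. The filter uses both arrays, so a large difference can itself carry a gene below it, and the count of 0 is partly set by this. With the same level asked only of the brighter array, a rule added after seeing the data, Ccnb2, Bub1b, Birc5 and Cdk1 joined, which gave 1 of 31 members at least 2-fold higher and 3 of 31 lower, beside 8.21% and 6.85% of 13451 genes. For the members, 8 higher and 19 lower, the median log2 difference was -0.07, beside 50% lower among all genes that passed, whose median was -0.00. A difference under 1.5-fold was found for 23 of 27 members and for 80.6% of all genes. Of the 27, by their brightest probe sets, 18 lay within 1 probe-set spread of no difference, beside 66.1% of all genes. Beyond 2 spreads lay 0, beside 7.78% of all genes. Of the 23 other member probe sets past the filter, single ones of Ccnd2, Cdk4 and Rrm2 did lie beyond 2 spreads, all lower. The share of all other probe sets beyond 2 spreads was not computed, so these have no background to stand beside. The 9 members below the filter, 7 of them with G2 and mitotic roles, included 6 that differed at least 2-fold, in both directions. In pooled tissue RNA, fewer dividing cells and less of a transcript per cell cannot be told apart.

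**Figure D1:**
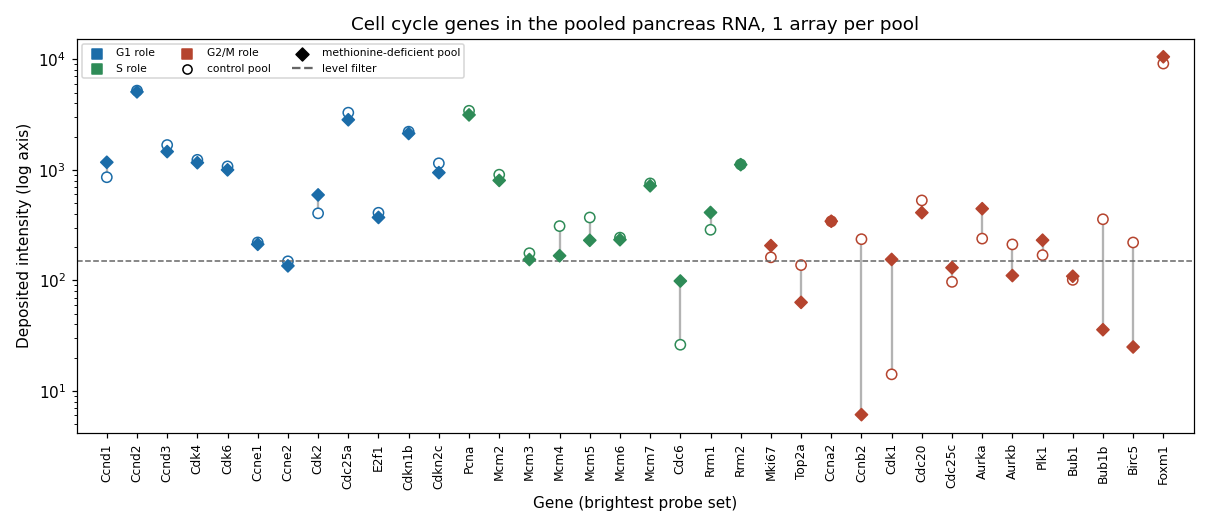
Deposited intensity (log axis) of the brightest probe set of each of 36 cell cycle genes in the control pool (open circles) and the methionine-deficient pool (diamonds), 1 array each, coloured by role, with the level filter at 150.3 as a dashed line. Most pairs above the line nearly coincide. Ccnb2, Bub1b and Birc5 each have 1 value far below it, and Cdk1 has 1 far below and 1 just above it. Both values of Cdc6 lie below the line, and heights are not comparable between genes.

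G1 genes had close values in both pools. Of 12 members 11 passed the filter, 2 higher and 9 lower, with a median log2 difference of -0.09 and a range from -0.28 to 0.55. Ccnd2, the gene of cyclin D2, had intensities of 5205 in the control RNA and 5072 in the methionine-deficient RNA, a log2 difference of -0.04 beside a probe-set spread of 0.18. Its 5 other probe sets past the filter had differences from -0.45 to 0.08, and 4 of them were lower. The largest of these, 3924 against 2880, lay at -2.48 spreads. A seventh probe set, below the filter, read 279.7 and 79.1.

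Ccnd1, which encodes cyclin D1 and responds to growth factors, went the other way. Its brightest probe set read 857.2 in the control RNA and 1171 in the methionine-deficient RNA, a log2 difference of 0.45 (probe-set spread 0.31). A second probe set read 798.9 and 1021, a difference of 0.35, so both probe sets past the filter were higher. The difference lay 1.47 spreads above 0, and 8.86% of the 2788 genes in its level bin were higher by at least as much. One more probe set, below the filter read 40.5 and 21.8. Ccnd3, the remaining D-type cyclin, read 1676 and 1461, a difference of -0.20 beside a spread of 0.18. Its 2 other probe sets lay below the filter and opposed each other, at 44.6 and 428.5 in one and 180.1 and 27.1 in the other.

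Of the kinases that partner the D-type cyclins, Cdk4 read 1232 in the control RNA and 1160 in the methionine-deficient RNA (log2 difference -0.09, probe-set spread 0.31). Its other probe sets disagreed, with 946.0 and 503.4 in one (-0.91, at -2.97 spreads) and 286.1 and 457.4 in the other (0.67). Cdk4 thus has no settled direction. Cdk6 read 1074 and 999.5, a difference of -0.10, and its other probe sets gave 0.08 and -0.37. Both kinases differed by less than 1 spread in their brightest probe sets.

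Cdk2, the kinase of the step into S phase, read 404.2 in the control RNA and 593.2 in the methionine-deficient RNA. This log2 difference of 0.55, beside a spread of 0.46, was the highest among the G1 members. Its cyclin partner gene Ccne1 read 220.4 and 212.0, a difference of -0.06. Ccne2, the second cyclin E gene, lay just below the filter at 148.8 and 135.3. Among the 10 probe sets of G1 members below the filter, Ccne2 included, 5 were higher and 5 lower, from -2.69 to 3.24.

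Cdc25a, a phosphatase that activates Cdk2, read 3288 and 2837, a difference of -0.21 beside a spread of 0.18, and its second probe set gave -0.15. E2f1, the founding E2F factor, read 409.0 and 371.0, a difference of -0.14 beside a spread of 0.46. Below the filter, one of its probe sets read 19.5 and 135.9 and another 18.3 and 11.3. The inhibitors of G1 kinases were close as well. Cdkn1b, the gene of the inhibitor p27, read 2213 and 2132 (log2 difference -0.05, spread 0.18), and its second probe set gave -0.13. Cdkn2c, which encodes the Cdk4 and Cdk6 inhibitor p18, read 1146 and 943.3 in its single probe set (-0.28, spread 0.31).

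Replication genes were lower in 8 of 9 cases past the filter, by small amounts. Their median log2 difference was -0.12, with a range from -0.89 to 0.52, and none reached 2-fold. Of their other probe sets past the filter 7 of 9 were lower (median -0.30), beside 48.9% lower and a median of 0.010 over all 7774 such probe sets. Brightest and other probe sets read the same genes and the same 2 arrays, so they are not independent samples. Marker lists of cell types went both ways in the methionine-deficient pool. Past the filter, plasma cell markers were lower in 4 of 5 cases and adipocyte markers in 3 of 3. Endothelial markers were higher in 4 of 4 and duct markers in 3 of 3. The part of such cells in the S phase values was not tested.

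Pcna, the sliding clamp of DNA polymerases, read 3420 in the control RNA and 3139 in the methionine-deficient RNA, a log2 difference of -0.12 within its spread of 0.18. The 6 Mcm genes encode the ring of the replicative helicase, and all 6 were lower in their brightest probe set. Mcm2 read 903.5 and 802.3 (log2 difference -0.17), and its second probe set also gave -0.18. Mcm7 read 753.6 and 717.3 (-0.07), and its other probe sets gave -0.55, -0.30 and 0.31. Mcm3, at 176.2 and 154.4 (-0.19), and Mcm6, at 243.6 and 233.3 (-0.06), lay within 1 spread of 0 in their brightest probe sets. Below the filter, Mcm6 read 215.8 and 78.8 in one probe set and 8.56 and 58.1 in another. Those of Mcm3 below the filter gave differences of 0.31, 0.85, -0.61 and 0.33.

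The largest differences of the helicase genes were those of Mcm4 and Mcm5. Mcm4 read 309.8 and 167.1, a log2 difference of -0.89 beside a spread of 0.77, but its second probe set read 200.1 and 240.0, which is higher. Mcm5 read 370.7 and 230.4 (-0.68, spread 0.60), and its second probe set, at 283.7 and 210.9 (-0.43), was lower too. In their level bins, 10.9% of genes for Mcm4 and 12.1% for Mcm5 were lower by at least as much. Both genes lay 1.1 spreads below 0, so neither stood apart from genes of like level.

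Rrm1 and Rrm2 encode the large and small subunits of ribonucleotide reductase, which makes the DNA building blocks. Rrm1 was the only replication gene past the filter with a higher value, at 286.9 in the control RNA and 411.3 in the methionine-deficient RNA (log2 difference 0.52, spread 0.60), and its second probe set gave -0.12. Rrm2 read 1119 and 1114 in its brightest probe set, a difference of -0.01. A second probe set read 1241 and 996.3 (-0.32), and another read 611.8 and 201.0, 3.03-fold lower (-1.60, spread 0.60, at -2.67 spreads). This was the only member probe set past the filter, among the 23 that were not the brightest, with a 2-fold difference, beside 4.01% of all such probe sets past 2-fold on the lower side and 4.61% on the higher side. The value of Rrm2 therefore depends on the probe set, from -1.60 to -0.01. Cdc6, which loads the helicase onto origins, lay below the filter at 26.2 and 98.7. The 9 probe sets of replication genes below the filter were higher in 7 and lower in 2, from -1.44 to 2.63. Several of them belong to Mcm3 or Mcm6, so they are not separate genes. Among the brightest probe sets of all 6345 genes below the filter, 48.3% were lower.

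**Figure D2:**
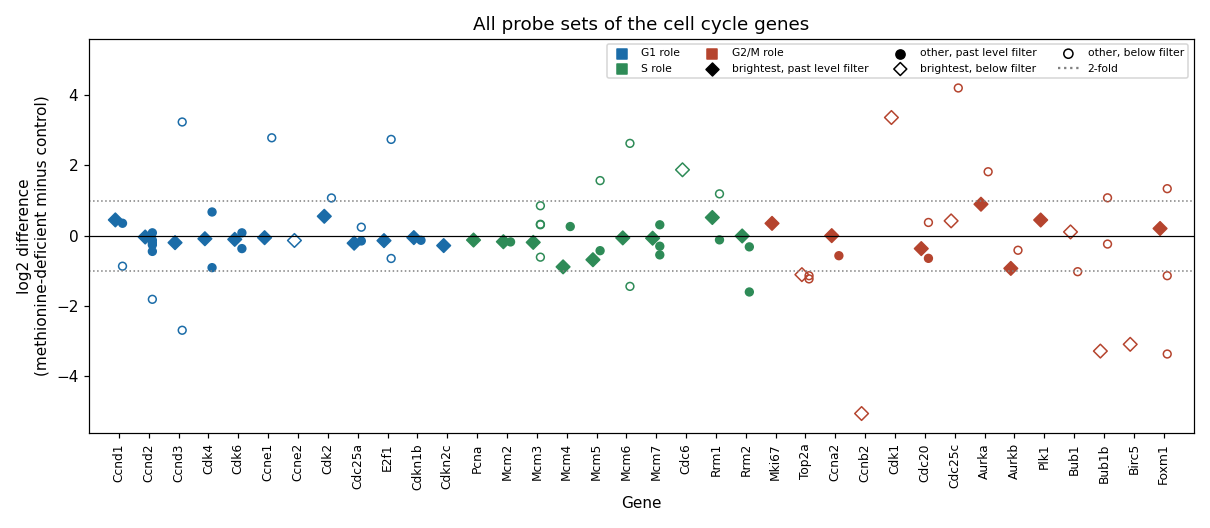
The log2 difference (methionine-deficient minus control) of each of the 88 probe sets of the cell cycle genes, by gene, with brightest probe sets as diamonds and others as circles, filled where past the level filter, and dotted lines at 2-fold. One filled symbol, a circle of Rrm2 at -1.60, lies beyond the lines, and open symbols spread from -5.06 to 4.20.

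Genes of G2 and mitosis were mostly too dim to compare. Of 15 members 7 passed the filter, 5 higher and 2 lower, with a median log2 difference of 0.20. With the level asked only of the brighter array, which adds 4 genes, the median was 0.00. In the 2 dimmest level bins, where 5 of these 7 lay, the median over all genes was also above 0, at 0.09 and 0.04. Only 2 other probe sets passed the filter, one of Ccna2 and one of Cdc20, and both were lower, so the medians of brightest and other probe sets had opposite signs in this role.

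Mki67, the gene of the proliferation marker Ki-67, read 161.7 in the control RNA and 206.4 in the methionine-deficient RNA, a log2 difference of 0.35 beside a probe-set spread of 0.77. In its level bin 36.0% of genes were higher by at least as much. Ccna2, which encodes cyclin A2 of S and G2 phase, read 342.3 and 342.8, a difference of 0.00, and its second probe set read 331.5 and 223.1 (-0.57). Cdc20, an activator of the anaphase-promoting complex, read 528.9 and 409.9 (-0.37, spread 0.46), with a second probe set at 294.7 and 188.3 (-0.64). Cdc20 was thus lower in both probe sets past the filter.

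The mitotic kinases gave unlike directions. Aurka, the Aurora kinase of the spindle poles, read 238.8 and 445.2, a log2 difference of 0.90 beside a spread of 0.60, and its second probe set, below the filter, was also higher at 7.46 and 28.9. Aurkb, its relative at the chromosomes and the midzone, read 211.6 and 110.6 (-0.93, spread 0.77), and its second probe set, below the filter, was also lower at 102.6 and 76.8. These were the highest and the lowest differences of all 27 members, and genes of like level matched or passed them in 8.46% of cases for Aurka and 10.4% for Aurkb. Plk1, a kinase of mitotic entry, read 169.3 and 231.1 (0.45, spread 0.77).

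Foxm1, a transcription factor that drives mitotic genes, has probe sets that do not read alike. The brightest had 9142 in the control RNA and 10536 in the methionine-deficient RNA, a log2 difference of 0.20 beside a spread of 0.18. The 3 other probe sets with its symbol alone all lay below the filter, at 452.4 and 43.0, at 79.7 and 35.7, and at 10.1 and 27.2. The brightest probe set sets the value of the gene here and is also the median of the 7 mitotic members, and which of the probe sets follows the Foxm1 transcript cannot be told from these files.

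**Figure D3:**
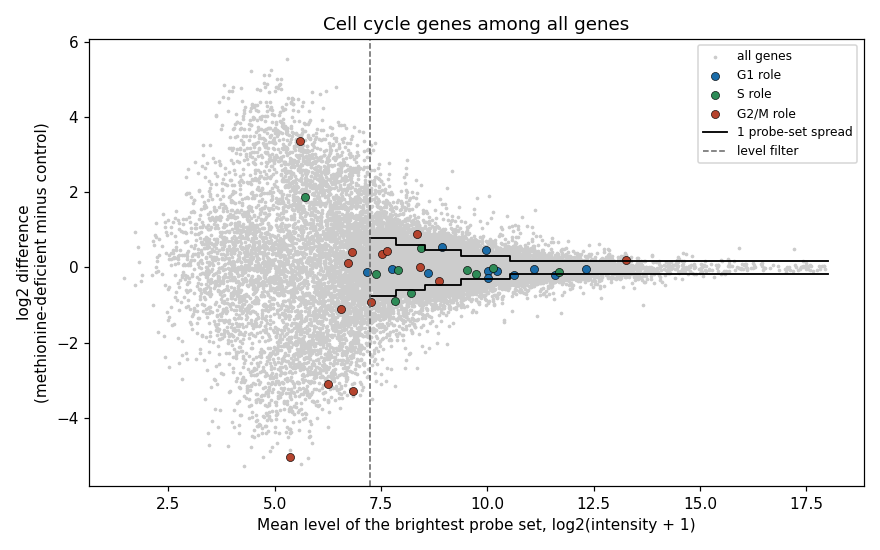
The log2 difference against mean level, log2(intensity + 1), of the brightest probe set of 18193 genes (grey) and of the cell cycle genes (coloured by role), with the level filter dashed and 1 probe-set spread as steps. Members right of the filter lie in the middle of the grey cloud within 2 spreads, and those beyond 2-fold all lie left of it.

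Below the filter, 6 of 9 members differed at least 2-fold, 2 higher and 4 lower. Among the 3672 genes below the filter in the same range of level, members included, 29.9% exceeded 2-fold on the higher side and 27.0% on the lower side, so such differences are common there. Ccnb2, the gene of cyclin B2, read 235.9 in the control RNA and 6.11 in the methionine-deficient RNA in its single probe set, a log2 difference of -5.06. Only 3 genes of those 3672, Ccnb2 included, were lower by as much, and it was 1 of 4 among all 18193 genes. Its kinase partner Cdk1 went the opposite way, from 14.1 to 154.7 (log2 difference 3.36), also in a single probe set, and 2.31% of the genes of like level were higher by as much. A cyclin and its kinase thus stood at opposite ends, each with one value in the lowest part of its array, at percentile 2.55 of intensities for Ccnb2 and 10.1 for Cdk1.

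Birc5, which encodes survivin of the chromosomal passenger complex, read 220.3 and 24.99 in its single probe set (log2 difference -3.09). Bub1b, the spindle checkpoint gene of BubR1, read 357.3 and 35.8 (-3.28) in its brightest probe set, but a second probe set read 65.6 and 139.7 (1.08). Top2a, the topoisomerase that untangles chromosomes, was 2.16-fold lower at 137.5 and 63.3 (-1.11). Its 2 other probe sets, at 115.3 and 51.8 (-1.14) and at 20.4 and 8.13 (-1.23), were lower by nearly as much, so Top2a was the only member below the filter with several probe sets that all differed 2-fold in the same direction. Bub1, a checkpoint kinase, read 101.1 and 109.0 in its brightest probe set, while a second one read 24.2 and 11.4 (-1.02). Cdc25c, the phosphatase that activates Cdk1, read 97.0 and 130.2 in its brightest probe set, while a second one read 10.9 and 218.1 (4.20). Over all 38 member probe sets below the filter, 20 were higher and 18 lower.

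Mitotic genes are known to share a promoter element, the cell cycle genes homology region (CHR), that works with upstream CCAAT boxes and through which the DREAM complex silences them in resting cells. Promoters were searched in RefSeq windows of build GRCm38.p6, from 250 bases before to 50 bases after the annotated start. The letters TTTGAA or TTCGAA, on either strand, were held by 9 of 11 mitotic promoters, 2 of 10 of the S role and 0 of 11 of the G1 role, beside 19.2% of all 32851 promoters. The box CCAAT, on either strand, was held by 10 of 11, 9 of 10 and 5 of 11, beside 37.4% of all promoters. The E2F motif, searched as TTTCCCGC, TTTCGCGC, TTTGCCGC or TTTGGCGC on either strand, was in 1 of 11, 5 of 10 and 2 of 11, beside 2.26%. No motif holds the letters of another. In all, promoters of 29 members were in the table. Below are the windows of Ccnb2, Cdk1 and Top2a, shown as examples of members below the filter that hold both CHR and CCAAT letters. They are printed 5' to 3' along each gene, with CHR and CCAAT letters of either strand in capitals.
Ccnb2, chr9:70421505-70421804, minus strand: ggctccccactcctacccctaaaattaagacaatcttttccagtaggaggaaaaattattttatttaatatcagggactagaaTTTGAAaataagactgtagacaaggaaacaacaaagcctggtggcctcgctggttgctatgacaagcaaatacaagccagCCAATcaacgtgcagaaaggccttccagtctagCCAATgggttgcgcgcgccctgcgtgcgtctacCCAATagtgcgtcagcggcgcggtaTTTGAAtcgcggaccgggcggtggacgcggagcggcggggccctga
Cdk1, chr10:69352863-69353162, minus strand: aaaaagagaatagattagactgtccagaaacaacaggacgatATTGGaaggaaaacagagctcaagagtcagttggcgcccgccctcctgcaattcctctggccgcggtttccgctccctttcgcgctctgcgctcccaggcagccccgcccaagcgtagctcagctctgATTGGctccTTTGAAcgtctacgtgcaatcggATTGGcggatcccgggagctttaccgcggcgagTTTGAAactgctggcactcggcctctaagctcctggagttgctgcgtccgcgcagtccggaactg
Top2a, chr11:99024140-99024439, minus strand: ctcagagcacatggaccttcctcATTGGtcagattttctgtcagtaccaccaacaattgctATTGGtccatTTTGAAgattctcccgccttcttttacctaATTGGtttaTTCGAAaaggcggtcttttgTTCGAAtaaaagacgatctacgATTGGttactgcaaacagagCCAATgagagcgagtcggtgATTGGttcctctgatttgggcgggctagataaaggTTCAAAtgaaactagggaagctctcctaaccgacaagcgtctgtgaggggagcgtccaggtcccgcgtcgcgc
Ccnb2 holds 2 CHR matches, at bases 84 and 255 of its window, and 3 CCAAT boxes. Cdk1 holds 2 CHR matches, at bases 180 and 236, 3 CCAAT boxes and an E2F match, TTTCGCGC at base 120, left in lower case. Top2a holds 4 CHR matches and 6 CCAAT boxes. Birc5 had no match to any of the 3 motifs in its window. Whether the motifs bear on the values of these genes was not tested. A match describes these letters only and does not show that a factor binds there.

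Disagreement between the probe sets of a gene was common, among the members as among all genes. Of the 14 members for which 2 or more probe sets passed, 7 had all of them on one side, beside 39.6% of the 4819 such genes in all. Ccnd1 was the 1 of these 7 that was higher, and Cdc20, Cdc25a, Cdkn1b, Mcm2, Mcm5 and Rrm2 were lower. Ccna2, Ccnd2, Cdk4, Cdk6, Mcm4, Mcm7 and Rrm1 had probe sets on both sides.

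Other genes of the same pathway were read from 3 lists. Of these 93 further genes 92 had a probe set and 64 passed the filter, 27 on the higher and 37 on the lower side with the middle log2 difference at -0.10, and 4 exceeded 2-fold on the higher side and 5 on the lower side, beside the 3.87% and 2.80% of all genes. In the G1 list 5 of 17 were higher and 12 lower (median -0.17), while the other probe sets of these genes were higher in 9 and lower in 5 (median 0.09). Its largest differences were E2f6, a repressive E2F factor, at 496.4 and 216.7 (-1.19), the inhibitor gene Cdkn2b (p15) at 269.2 and 131.8 (-1.02), the inhibitor gene Cdkn2d (p19) at 303.7 and 528.4 (0.80), and Tfdp1, the partner of E2F factors, at 2191 and 1394 (-0.65). Tfdp1 was among the brightest bin, with a spread of 0.18, while the spreads were 0.60 for E2f6, 0.77 for Cdkn2b and 0.46 for Cdkn2d.

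In the replication list 9 of 24 were higher and 15 lower (median -0.03), and the other probe sets were split 6 and 6. Fen1, the nuclease that trims Okazaki fragments, read 2196 in the control RNA and 805.6 in the methionine-deficient RNA. This was 2.72-fold lower (log2 difference -1.45, spread 0.31). Fen1 had 2 probe sets above the level filter, and each read lower. Genes of the lists were named only if such probe sets agreed in sign, so this agreement adds no evidence. In the level bin of Fen1 only 10 of 2788 genes, 0.359%, were at least 2-fold lower. The helicase factor gene Cdc45 read 544.6 and 82.2 (-2.71), the licensing inhibitor gene Gmnn (geminin) 108.9 and 425.7 (1.96), and Mcm10 155.5 and 424.2 (1.44), each in 1 probe set past the filter. These genes lay in the 2 dimmest bins, with spreads of 0.77 and 0.60.

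In the mitosis list 13 of 23 were higher and 10 lower (median 0.34), and of the other probe sets 8 of 12 were higher (median 0.26). Named by the size of their differences, Ube2c, a ubiquitin-conjugating enzyme of the anaphase-promoting complex, read 350.1 and 136.3 (-1.35), and Cenpa, the centromeric histone, 105.3 and 255.7 (1.27). The kinetochore gene Cenpf read 311.9 and 170.2 (-0.87) and the spindle motor gene Kif11 167.9 and 307.0 (0.87). All of these named mitosis genes lay in the 2 dimmest bins, with spreads of 0.77 and 0.60. In the dimmest bin, which holds Ube2c and Cenpa, 14.2% of genes were at least 2-fold higher and 9.28% lower. Of the mitosis list 12 genes lay below the filter, as did 11 of the replication list and 5 of the G1 list.

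**Figure D4:**
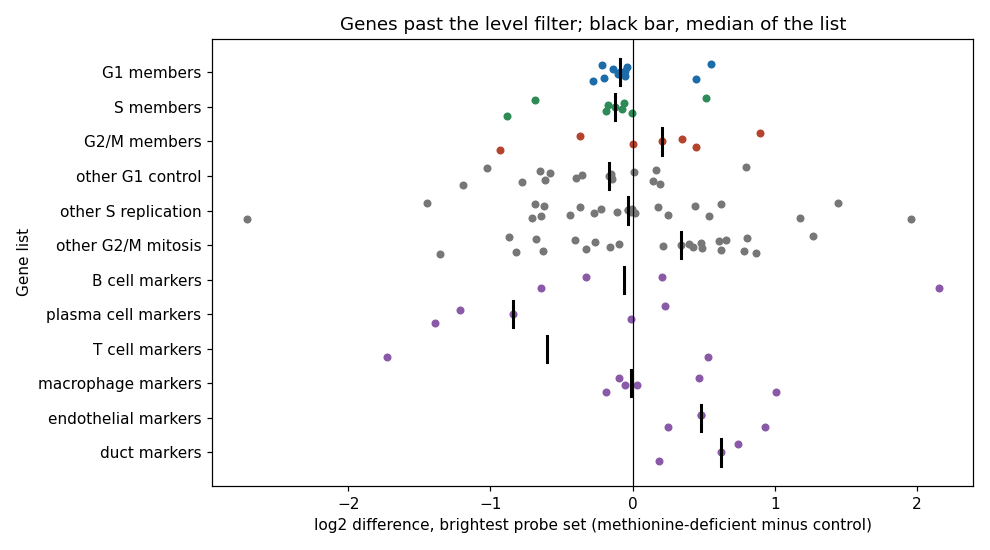
The log2 difference of each gene past the level filter (points, brightest probe set, methionine-deficient minus control) in the 3 roles, the 3 lists of other cell cycle genes and 6 marker lists, with each list's median as a black bar. The medians of the G1 and S members lie at -0.09 and -0.12, and those of the mitotic members and the other mitosis genes at 0.20 and 0.34, with points on both sides of 0 in each.

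Pools of tissue can also differ in the cells they hold. Plasma cell markers past the filter were lower for 4 of 5 genes, their median log2 difference being -0.84, led by Igha (-1.39) and Ighm (-1.22). The summed intensity of all 6 was 77007 in the control RNA and 70457 in the methionine-deficient RNA, most of it Xbp1, which acinar cells also express strongly, and that of the other 5 was 12415 and 6472. Sums add probe sets of unlike brightness, include genes below the filter and describe the list only. B cell markers were higher in 2 and lower in 2 cases (summed 1221 and 1344), and T cell markers higher in 1 and lower in 1 case (1191 and 1380). Endothelial markers were higher in 4 of 4 cases past the filter, with a median of 0.48 (summed 1344 and 2025), and duct markers in 3 of 3 with a median of 0.62 (1479 and 1812). Macrophage markers were higher in 3 and lower in 3 cases (8349 and 9794). Adipocyte markers were lower in 3 of 3 (median -0.21, summed 15507 and 13064), with Cidec at -1.59. Fibroblast and stellate markers were higher in 4 and lower in 2 cases (21679 and 21452), with Pdgfra at -1.08. Germinal centre B cell markers were split 1 and 1 (894.4 and 926.3), and the acinar and beta cell lists had medians of -0.04 and 0.04. None of these markers is at 0 on either array. Their part in the values of the cell cycle genes was not tested.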

How the data were processed

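Pancreatic RNA of 2 groups was measured, each group as 1 pool on 1 array. Per the labels' protocols, extraction used Trizol and biotin-labelled cRNA came from the GeneChip 3' IVT Express Kit. What the authors deposited is a linear intensity for each probe set. The sources used here name neither the program nor the background correction. With 2% of values trimmed from either end both arrays have a mean of 500.003, so they appear scaled to a common trimmed mean, which would remove a difference in total signal. No detection calls were used, and the number of arrays limits the precision.

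There were 45101 probe sets per array, and the median was 165.0 in the control RNA and 171.1 in the methionine-deficient RNA. Gene symbols follow the 2016 platform annotation, brought up to date by gene identifier. Of the probe sets, 34945 had 1 gene symbol, 932 had several, 9160 were unnamed here and 64 were array controls.

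Intensities were taken to log2(value + 1) with no further scaling. The probe-set spread is the scaled median absolute difference between neighbouring probe sets of a gene, divided by the square root of 2, in 5 level bins. The spread and the 2-fold counts were tested on simulated data: for the comparison of the pools over 11848 genes, 193 of 200 genes simulated at 4-fold were counted past 2-fold. The simulation drew normal noise of the probe-set spread and left levels unchanged. It therefore does not cover genes that a large difference carries below the level filter. The members, gene lists and settings were chosen with earlier results of these data known. All members were named, and of each list of other cell cycle genes the 4 past the filter with the largest difference whose probe sets past the filter share a direction. Computations used Python 3.11.15, numpy 2.4.6, pandas 2.3.3 and matplotlib 3.10.9. Promoter sequences are RefSeq's, build GRCm38.p6, and no other coordinates were used.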

Additional observations from a re-analysis of the deposited data

Results flagged for a closer look

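The poly-A control probe sets, which read bacterial RNAs meant to be spiked in ahead of labelling, lie outside the main measurement. Their median log2 difference, methionine-deficient minus control, was 0.1816, with 23 of 24 higher, while for the hybridization controls it was -0.02, and 8 of 18 were higher. Several probe sets read the same transcript, and whether such RNAs were added is not stated in the labels.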

How the results depend on the processing

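No paired analysis was possible because each group is 1 array, and no array could be left out for the same reason. Among the 27 members past the filter, 24 had the same sign under every setting tried that gave them a value. The exceptions were Ccna2 and Ccnd2, whose brightest probe sets lay near 0, and Cdk4, which was 0.67 without probe sets that can bind several transcripts. The other level filters, the pseudocount and the probe sets of several symbols left the brightest probe sets unchanged, so no sign could change there. Mcm4 and Rrm1 kept their signs, although their second probe sets went the other way (0.26 and -0.12). The 2-fold counts of 0 higher and 0 lower became 2 and 4 with no level filter, which adds the 9 members below it, and 1 and 3 at 1.5-fold. They stayed 0 and 0 at 3-fold. Scaling to the poly-A controls, added after seeing the data, gave 2 lower members (Aurkb and Mcm4), a G1 median of -0.27, a median of -0.25 over all members and one of -0.38 over their other probe sets. This scaling lowers all genes alike, by 0.1816, so the median over all genes was then -0.18 and 4.39% of them were at least 2-fold lower. A level filter on the brighter array, also added after seeing the data, gave 1 higher and 3 lower of 31, beside 8.21% and 6.85% of all genes. The mitotic median ranged from 0.00 with that filter to 0.28 without probe sets that can bind several transcripts, and the S median from -0.31 to -0.10. With the mean over probe sets Rrm2 had -0.64, Mcm4 -0.31 and Ccna2 -0.28. Centring, quantile scaling, a pseudocount of 16, the 75th percentile filter and probe sets of several symbols left both 2-fold counts at 0. With 1 array per pool, and members of mitosis mostly near or below the median intensity, small differences could not be resolved.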
